A study of Mus musculus with 4 samples.

Results

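The coenzyme Q biosynthesis genes described here are Pdss1, Pdss2, Coq2, Coq3, Coq4, Coq5, Coq6, Coq7, Coq9 and Coq10b. They were picked by name for their place in one pathway, with earlier results of these data known. All 10 were found among the 43430 genes of the deposited count table and in the authors' deposited comparison, and all 10 passed the filter on low counts, which left 13281 genes for testing.

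Coenzyme Q, or ubiquinone, is a lipid of the inner mitochondrial membrane with a redox-active ring and a long isoprenoid tail. It takes electrons from complex I, complex II and several other dehydrogenases and hands them to complex III, which oxidises it again. The tail is built from products of the mevalonate pathway and joined to a ring derived from tyrosine, and the ring is then hydroxylated, methylated and decarboxylated by a set of proteins gathered on the matrix side of that membrane. In dividing lymphocytes a supply of oxidised coenzyme Q is also needed by dihydroorotate dehydrogenase for pyrimidine synthesis.

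Double-positive (DP) thymocytes, which carry both CD4 and CD8, were sorted from C57BL/6 thymus and their RNA was sequenced. The 2 knockout (KO) animals had the genotype Uqcrfs1fl/fl; CD4-Cre+, and the 2 control animals are labelled WT. Cre under the CD4 promoter acts in T-lineage cells from about the DP stage, so other thymic cells keep the gene. The series description calls the controls heterozygous littermates without naming the allele, so WT is used here as the name of the group. Neither their Cre status nor the age of any mouse is stated in the sources read. Each library came from its own mouse. Uqcrfs1 encodes the Rieske protein of complex III, the enzyme that reoxidises coenzyme Q. The comparison asks how targeting of Uqcrfs1 goes with the transcripts of the genes that make coenzyme Q. These libraries measure RNA only, so they do not give the amount of Rieske protein.

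Reads assigned to genes numbered 30408863 to 34080516 per library. Uqcrfs1, the targeted gene for the Rieske protein, stood at 15.6 and 18.6 CPM (read counts made comparable between libraries of different depth, here with TMM factors) in KO replicates 1 and 2, against 61.4 and 57.2 CPM in WT replicates 1 and 2. Its log2 change was -1.80 (SE 0.09, adjusted p = 1.78e-04, edgeR quasi-likelihood test), and 3 of all 13281 genes tested passed an adjusted p of 0.05. Markers of DP thymocytes (Cd4, Cd8a, Cd8b1, Rag1, Rag2, Dntt, Themis and Cd1d1) were high in every library, summing to 17074 and 16971 CPM in KO and 16210 and 17376 CPM in WT. Summed markers of double-negative thymocytes came to 129 and 166 CPM in the KO libraries and to 98.1 and 100.4 CPM in WT. These sums were higher in KO and came mostly from Notch3. Log2 changes were positive for 6 of 6 markers, beside 49.9% of all genes tested. Kit (log2 change 0.031) and Hes1 (1 to 24 counts per library) overlapped between the groups. Il2ra, Notch3, Dtx1 and Cd44 did not, with both KO libraries above both WT libraries, as for 20.4% of all genes tested. Il2ra was at 12.9 and 26.4 CPM in KO and 8.50 and 10.5 CPM in WT (log2 change 1.05, adjusted p = 0.615). Cd44 was at 12.3 and 11.8 CPM in KO and 9.69 and 10.2 CPM in WT (0.28, adjusted p = 0.547). The double-negative markers with the smallest p were Dtx1, at 18.4 and 25.3 CPM in KO and 11.0 and 11.2 CPM in WT (log2 change 0.98, adjusted p = 0.124), and Notch3, at 82.5 and 98.4 CPM in KO and 65.9 and 65.1 CPM in WT (0.47, adjusted p = 0.213). Sums of the 8 myeloid markers were 73.8 and 76.2 CPM in KO and 76.7 and 77.8 CPM in WT, of which Cst3 alone gave 50.8 to 60.6 CPM. The lysozyme gene Lyz2 was at 5.36 CPM in KO replicate 2, against 0.499 CPM in KO replicate 1 and 0.487 and 0.231 CPM in WT. Csf1r (1.32 CPM), Adgre1 (0.378 CPM) and C1qa (0.441 CPM) were also highest in KO replicate 2. Elsewhere these were at most 0.152, 0.0659 and 0.0659 CPM, with C1qa at 0 in WT replicate 1. Itgam was highest in KO replicate 2 too, at 11.0 CPM beside 10.2 CPM in WT replicate 2. Cd68, Fcer1g and Cst3 were not highest in that library. The mature T cell markers Ccr7, S1pr1 and Klf2 summed to 13.7 and 26.6 CPM in KO and 16.998 and 17.225 CPM in WT, so KO replicate 2 was the highest of the 4 libraries and KO replicate 1 the lowest. Sums for the B cell markers Cd79a, Cd79b and Ms4a1 were 27.8 and 26.1 CPM in KO and 28.0 and 24.3 CPM in WT, mostly from Cd79b, while Cd79a stayed under 1 CPM. The 6 stromal and epithelial markers summed to 145 and 144 CPM in KO and 152 and 157 CPM in WT, mostly from Pecam1, with Krt8 at 0 throughout. The 3 erythroid markers summed to at most 0.0946 CPM. The part of these other cells in the values below was not tested, and in bulk RNA fewer cells of a type cannot be told apart from less RNA per cell.

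None of the 10 coenzyme Q biosynthesis genes passed the test between KO and WT, and every 95% interval included no change. Log2 changes of KO over WT ran from -0.059 (Coq6) to 0.14 (Coq2), and the smallest adjusted p was 0.672. In edgeR's quasi-likelihood test 0 of 10 passed, beside 0.0226% of all genes tested; 0 were called higher in KO, beside 0.00753%, and 0 lower, beside 0.0151%. At an unadjusted p under 0.05 there were again 0 of 10, beside 8.4% of all genes. DESeq2 also called 0 of 10, beside 0.109% of its genes with an adjusted p. In the authors' deposited table, 0.693% of 11536 genes have an adjusted p under 0.05 and none of the 10 is among them; the lowest there is 0.819, for Coq2. The fold intervals below give the sizes of change that 2 mice per group leave possible.

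**Figure D1:**
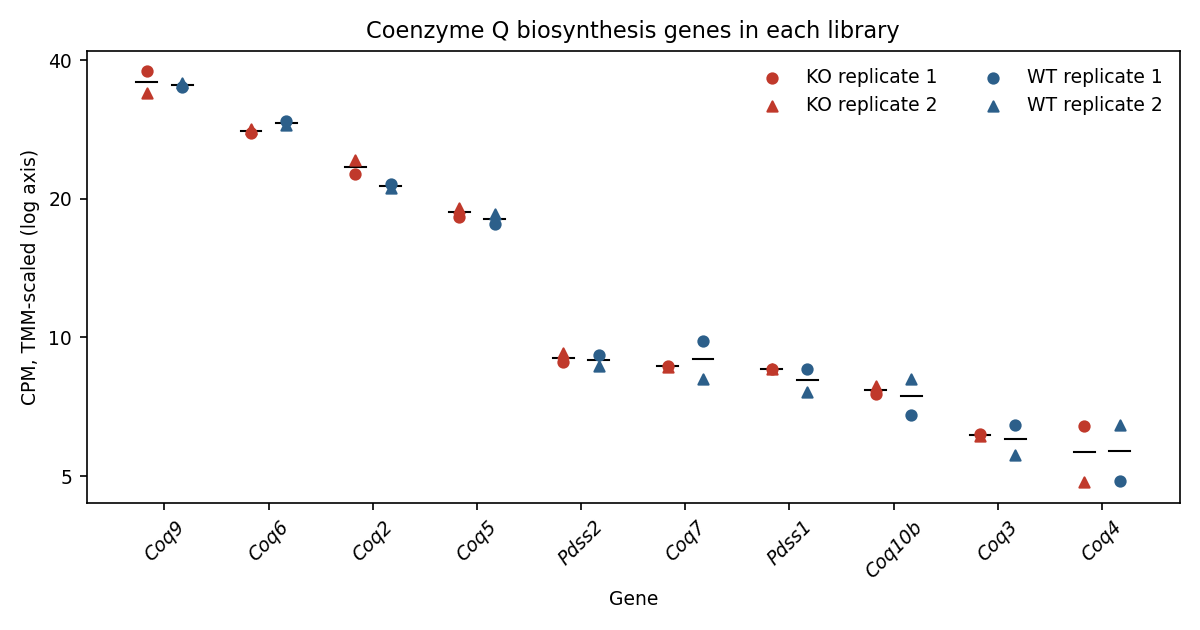
Level of each coenzyme Q biosynthesis gene in each library, as TMM-scaled CPM on a log axis, with KO in red on the left and WT in blue on the right of each gene; circles are replicate 1, triangles replicate 2 and the bar is the mean of 2. Genes stand in order of mean CPM, which also depends on transcript length. KO and WT points lie close together for every gene, apart on both sides only for Coq2 and Coq6, and those of Coq4 form the same pair of heights in both genotypes.

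The tail of coenzyme Q is made by a synthase of paired PDSS1 and PDSS2 chains. Pdss1, on chromosome 2 from 22895522 to 22940266 (plus strand, mm10), was at 8.54 and 8.54 CPM in KO replicates 1 and 2, against 8.56 and 7.61 CPM in WT replicates 1 and 2. The KO libraries and WT replicate 1 sat together, and WT replicate 2 lay below them. Its log2 change was 0.078 (SE 0.13, adjusted p = 0.885), with a 95% interval of the KO over WT fold from 0.866 to 1.29. Pdss2, on chromosome 10 from 43221486 to 43464882 (plus strand), was at 8.83 and 9.24 CPM in KO and at 9.17 and 8.66 CPM in WT. Its 4 values interleaved, and the log2 change was 0.018 (SE 0.12, adjusted p = 0.977; fold interval 0.842 to 1.22).

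Coq2 encodes the prenyltransferase that attaches the tail to the ring, the first step that commits both parts to coenzyme Q. It lies on chromosome 5 from 100654723 to 100675140 (minus strand) and was at 22.7 and 24.3 CPM in KO, against 21.6 and 21.1 CPM in WT. Both KO libraries were above both WT libraries, as for 20.4% of all genes tested. The means were 23.5 ± 1.13 CPM in KO and 21.4 ± 0.345 CPM in WT (SD, n = 2 each). With a log2 change of 0.14 (SE 0.08, adjusted p = 0.672), Coq2 had the smallest p of the 10, at an unadjusted p of 0.126, but the fold interval of 0.968 to 1.25 included no change.

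The enzymes of ring modification follow. Coq6 encodes a flavin monooxygenase that hydroxylates the ring, and lies on chromosome 12 from 84361657 to 84373796 (plus strand). It was at 27.8 and 28.4 CPM in KO and at 29.6 and 29.0 CPM in WT, so both KO libraries were lower, as for 20.1% of all genes tested. The means were 28.1 ± 0.373 CPM in KO and 29.3 ± 0.423 CPM in WT (SD, n = 2 each), a log2 change of -0.059 (SE 0.07, adjusted p = 0.832). Its fold interval, 0.858 to 1.07, was the narrowest of the 10 genes. Coq5, which encodes the C-methyltransferase, lies on chromosome 5 from 115279666 to 115296972 (plus strand). Coq5 was at 18.3 and 19.1 CPM in KO and at 17.6 and 18.5 CPM in WT. These values overlapped, with a log2 change of 0.051 (SE 0.09, adjusted p = 0.893; fold interval 0.903 to 1.19).

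Coq3, for the O-methyltransferase that acts at 2 points of the pathway, lies on chromosome 4 from 21879673 to 21912162 (plus strand). Its values were 6.16 and 6.12 CPM in KO and 6.46 and 5.57 CPM in WT. The KO pair lay inside the WT pair, and the log2 change was 0.029 (SE 0.15, adjusted p = 0.969; fold interval 0.806 to 1.29). Coq7 encodes the di-iron hydroxylase of the penultimate step, and lies on chromosome 7 from 118509659 to 118533356 (minus strand). It was at 8.68 and 8.64 CPM in KO, against 9.84 and 8.13 CPM in WT. Here too the KO pair fell between the WT values, and the log2 change was -0.055 (SE 0.13, adjusted p = 0.926; fold interval 0.781 to 1.19).

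Coq4 and Coq9 encode further proteins of ring modification, with COQ9 a lipid-binding partner of COQ7. Coq9, on chromosome 8 from 94838321 to 94854895 (plus strand), was at 37.9 and 34.0 CPM in KO and at 35.1 and 35.7 CPM in WT. The WT pair lay between the KO libraries, and the log2 change was 0.024 (SE 0.07, adjusted p = 0.943; fold interval 0.905 to 1.14). Coq4, on chromosome 2 from 29787493 to 29797935 (plus strand), was at 6.42 and 4.85 CPM in KO and at 4.87 and 6.46 CPM in WT. Each genotype thus had 1 high and 1 low library, and the group means, 5.64 ± 1.11 CPM in KO and 5.66 ± 1.12 CPM in WT (SD, n = 2 each), were nearly equal. The log2 change of Coq4 was -0.0023 (SE 0.20, adjusted p = 0.999), with the widest fold interval of the 10 genes, 0.728 to 1.37.

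Coq10b encodes a lipid-binding protein of the START family that is needed for coenzyme Q to work in the respiratory chain rather than for its synthesis. It lies on chromosome 1 from 55052770 to 55072702 (plus strand) and was at 7.54 and 7.85 CPM in KO, against 6.79 and 8.13 CPM in WT. The KO values fell between the WT values. Its log2 change was 0.045 (SE 0.14, adjusted p = 0.944; fold interval 0.827 to 1.29).

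**Figure D2:**
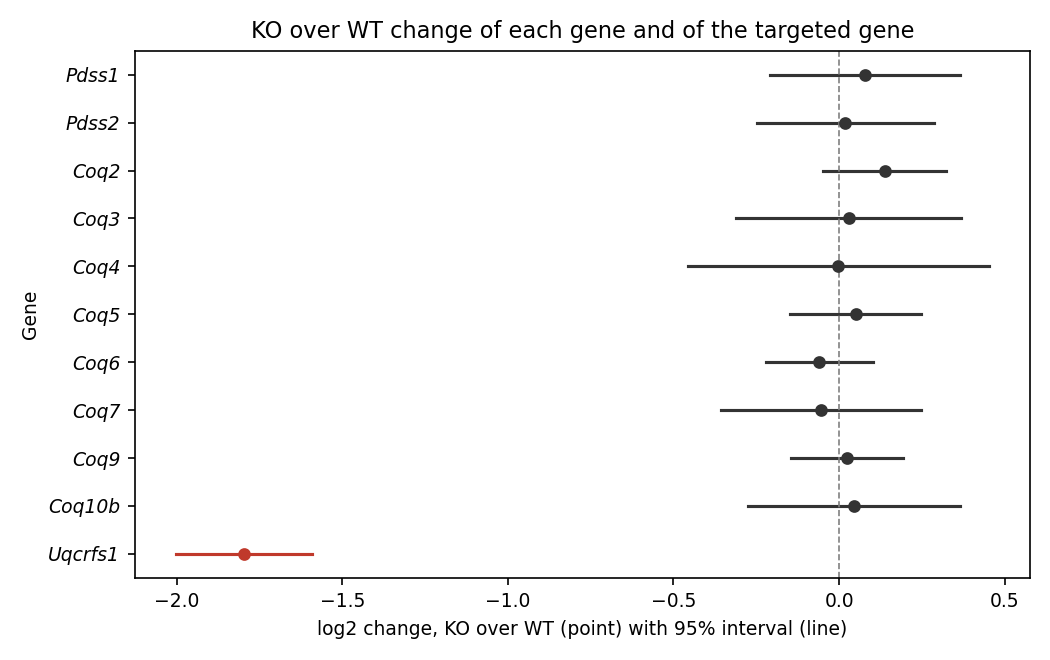
Log2 change of KO over WT for each coenzyme Q biosynthesis gene (black) and for Uqcrfs1 (red), with the point as the fitted value and the line as its 95% interval. All 10 black lines cross 0 and lie within -0.46 to 0.45, while that of Uqcrfs1 runs from -2.00 to -1.59.

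Set against all genes tested, changes of the 10 were small. Their median log2 change was 0.026 and their median change in either direction 0.048, against -9.8e-05 and 0.085 over all genes tested. The 10 were measured less precisely, with a median SE of 0.12 at a median of 8.90 CPM, against 0.086 at 26.6 CPM. Values were positive for 7 of 10, beside 49.9% of all genes tested. The KO and WT values did not overlap for 2 of the 10 (Coq2 above, Coq6 below), beside 40.5% of all genes tested. For 8 of 10 the gap between the replicates of at least 1 genotype was larger than the change between genotypes, beside 73.2% of all genes tested. Summed over the 10, levels were 152.9 and 151.0 CPM in KO and 149.5 and 148.8 CPM in WT.

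**Figure D3:**
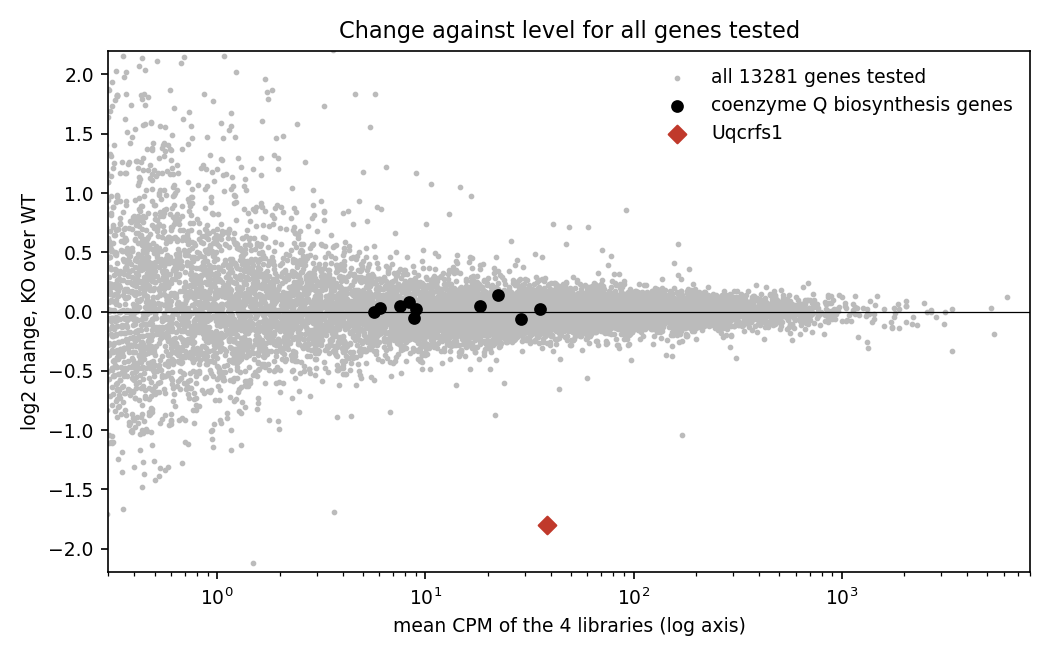
Log2 change of KO over WT against mean CPM (log axis) for all genes tested (grey), with the coenzyme Q biosynthesis genes in black and Uqcrfs1 as a red diamond; 186 grey genes fall outside the axes. The black points, from Coq4 on the left to Coq9 on the right, lie inside the grey band around 0, and Uqcrfs1 stands far below it.

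Precision differed among the 10 with depth and with the spread between mice. Counts per library ran from 154 (Coq4, KO replicate 2) to 1291 (Coq9, KO replicate 1). Of 20 ratios between the replicates of a genotype, 4 had an exact 95% binomial interval that left out 1, which covers counting error only: Coq4 in KO (1.32, interval 1.07 to 1.64) and in WT (0.755, 0.609 to 0.935), Coq7 in WT (1.21, 1.02 to 1.43) and Coq9 in KO (1.11, 1.03 to 1.21). How often such intervals leave out 1 over all genes tested was not computed. Over genes with at least 40 summed counts, the replicate pair of each genotype also differed beyond counting noise. The 4 ratios therefore cannot be read as a trait of these genes. The Coq4 replicates differed in opposite order in the 2 genotypes, by 0.40 on the log2 scale in KO and 0.41 in WT. With 1 library left out, Coq2 and Coq5 stayed positive and Coq6 stayed negative in every such fit, and the other 7 turned sign in at least 1. For Coq2 and Coq6 this follows from groups that do not overlap, as for 40.5% of all genes tested. The share of all genes that keep their sign was not computed. The range was widest for Coq4, from -0.22 without KO replicate 1 to 0.21 without WT replicate 2.

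**Figure D4:**
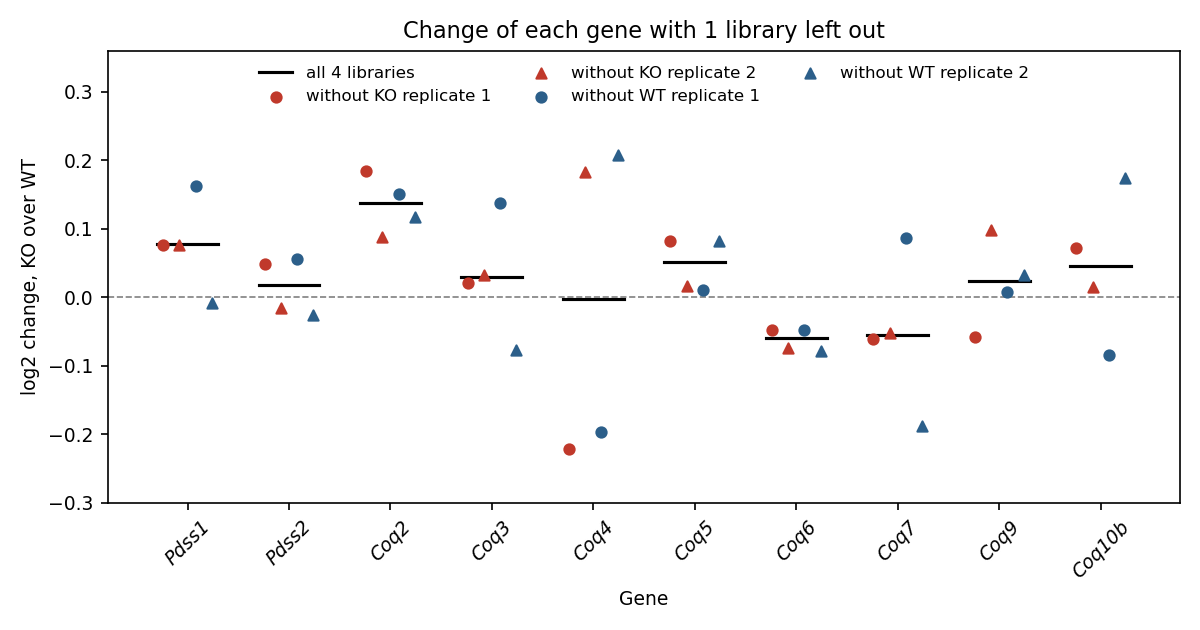
Log2 change of KO over WT for each coenzyme Q biosynthesis gene with all 4 libraries (black bar) and with each library left out in turn (red: a KO library, blue: a WT library; circle: replicate 1, triangle: replicate 2). Coq2 stays between 0.087 and 0.18 and Coq6 between -0.078 and -0.048, while Coq4 lies on either side of 0, from -0.22 to 0.21.

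Levels were compared between genes per kilobase of annotated exon (RPKM, the TMM-scaled CPM divided by the union of exons in GENCODE M21, an annotation of the same mouse build). The order was Coq9 at 11.8 ± 0.894 RPKM in KO and 11.6 ± 0.140 RPKM in WT, then Coq6 at 8.95 ± 0.119 RPKM in KO and 9.32 ± 0.135 RPKM in WT (SD, n = 2 each). Coq2 came next at 8.96 ± 0.430 RPKM in KO and 8.14 ± 0.131 RPKM in WT, and then Coq5 at 6.17 ± 0.200 RPKM in KO and 5.95 ± 0.210 RPKM in WT. The 4 libraries of Coq9 lay above all those of Coq6, and those of Coq2 above all those of Coq5, while Coq6 and Coq2 overlapped. Coq3, Pdss1, Coq4, Coq10b, Pdss2 and Coq7 followed at mean levels of 2.03, 1.96, 1.66, 1.58, 1.51 and 1.37 RPKM, where each neighbour overlapped the next. The same 4 genes were the highest with the longest coding length in place of exons. Below them the order changed, with Coq3 moving from rank 5 to 10 and Coq10b from rank 8 to 5. The length column of the deposited table gave 14676 bases for Coq6, beside a union of 3142, and 5199 for Coq7, beside 6434. How that column was made was not tested. With it the highest was Coq5, and Coq6 ranked 4.

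Some of these loci share exons with genes of the opposite strand, and whether HTSeq counted by strand is unstated, so such reads may have been lost or shared. The share of exonic bases was largest for Coq4, with 27.1% (921 bases) also in Trub2, a pseudouridine synthase gene. Trub2 stood at 38.8 and 39.9 CPM in KO and 36.2 and 41.2 CPM in WT, and the part of its reads in the Coq4 values was not tested. Pdss1 shared 9.4% of exonic bases with Abi1 and a pseudogene, Coq10b shared 7.1% with E330011M16Rik (at most 0.0329 CPM), Coq6 shared 4.1% with Fam161b and Coq9 shared 1.2% with Ciapin1. Abi1 was at 178 CPM in both KO libraries and at 167 and 169 CPM in WT. Pdss2, Coq2, Coq3, Coq5 and Coq7 shared none.

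Coq9 and Coq6 each begin head to head with a protein-coding neighbour within 1000 bases, an arrangement found for 17.6% of the 11338 tested protein-coding genes. Coq9 and Ciapin1, an iron-sulfur cluster assembly gene, overlap at their first exons by 38 bases. Ciapin1 stood at 44.6 and 44.9 CPM in KO and 44.2 and 46.0 CPM in WT (log2 change -0.013, adjusted p = 0.966). Fam161b, which faces Coq6, was at 3.55 and 3.59 CPM in KO and 3.53 and 3.36 CPM in WT.

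RefSeq start windows (GRCm38.p6, 250 bases before to 50 after each annotated start) were matched by symbol for 9 of the 10 genes, with 2 windows for Coq3. Coq5 had no entry. The 10 windows held a median of 20 CpG dinucleotides, from 12 to 39, beside 7 over all 32817 windows. These 32817 windows, used for all shares below, were not limited to the genes tested here. They were searched on both strands for the cores of NRF1 (GCGCNTGCG), ETS factors (CCGGAAGT), YY1 (AAGATGGCG), the E-box (CACGTG) and the GC box (GGGCGGGG). NRF1 and YY1 are known activators of many nuclear genes for mitochondrial proteins. The NRF1 core was in 1 window (Coq3), beside 6.3% of all windows, the YY1 core in 1 (Coq9), beside 1.4%, and the E-box in 2 (Coq4 and Coq10b), beside 7.15%. No window held the ETS core or the GC box, which are in 3.89% and 17.6% of all windows. The 4 windows with a match are printed with the match in capitals, from which nothing follows about binding or about how alike the starts are. They are the windows at chr8:94838163-94838462 (plus strand), chr4:21879603-21879902 (plus strand), chr2:29787243-29787542 (plus strand) and chr1:55052520-55052819 (plus strand).
Coq9: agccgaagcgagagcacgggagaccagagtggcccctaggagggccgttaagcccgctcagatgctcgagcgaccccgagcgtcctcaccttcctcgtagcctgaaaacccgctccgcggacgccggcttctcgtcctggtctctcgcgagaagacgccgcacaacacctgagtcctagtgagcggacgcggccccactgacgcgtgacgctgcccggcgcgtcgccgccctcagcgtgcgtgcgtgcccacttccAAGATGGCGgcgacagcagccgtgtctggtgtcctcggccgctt
Coq3: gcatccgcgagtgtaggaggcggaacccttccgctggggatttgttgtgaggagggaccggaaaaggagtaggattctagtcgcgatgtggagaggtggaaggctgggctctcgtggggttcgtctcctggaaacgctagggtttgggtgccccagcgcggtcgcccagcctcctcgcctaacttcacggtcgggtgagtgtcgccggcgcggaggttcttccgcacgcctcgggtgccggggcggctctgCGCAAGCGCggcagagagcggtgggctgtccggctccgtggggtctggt
Coq4: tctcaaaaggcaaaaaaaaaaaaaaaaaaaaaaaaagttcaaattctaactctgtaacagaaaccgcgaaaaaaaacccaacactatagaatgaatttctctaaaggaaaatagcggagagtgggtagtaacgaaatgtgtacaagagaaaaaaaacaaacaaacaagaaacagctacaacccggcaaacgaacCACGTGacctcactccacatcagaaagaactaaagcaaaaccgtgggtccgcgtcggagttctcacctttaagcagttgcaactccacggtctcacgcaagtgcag
Coq10b: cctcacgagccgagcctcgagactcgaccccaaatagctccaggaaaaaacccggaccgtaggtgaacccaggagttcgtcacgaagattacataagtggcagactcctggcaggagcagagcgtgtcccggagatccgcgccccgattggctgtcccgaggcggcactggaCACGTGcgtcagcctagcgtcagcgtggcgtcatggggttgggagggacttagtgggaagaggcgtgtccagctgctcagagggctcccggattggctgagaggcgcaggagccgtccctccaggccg
The Coq9 window carries its YY1 core just after the annotated start and has the most CpG (39). The Coq4 window has 13 CpG and holds a run of adenines near its upstream end. No 2 of these windows matched the same motif except those of Coq4 and Coq10b, whose E-boxes stood beside log2 changes of -0.0023 and 0.045.

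Other genes tied to coenzyme Q were close to 0 as well. Of the 9 listed, 8 had enough counts and 0 passed in either direction, with log2 changes from -0.090 to 0.044 and a median of -0.022. That median was -0.052 without WT replicate 2 and -0.0085 without KO replicate 2. Hpdl, which in human cells makes a precursor of the ring, had 2 to 4 counts per library and was not tested. The 2 with the smallest p were Coq10a, the paralog of Coq10b, at 16.6 and 16.9 CPM in KO and 17.4 and 18.2 CPM in WT (log2 change -0.090, SE 0.09, adjusted p = 0.799), and Fdxr, a ferredoxin reductase gene, at 31.1 and 30.6 CPM in KO and 29.6 and 30.2 CPM in WT (0.044, SE 0.07, adjusted p = 0.880). Per kilobase of exon, Coq10a was the more abundant of the COQ10 pair, at 6.45 and 6.57 RPKM in KO and 6.77 and 7.09 RPKM in WT, against at most 1.69 RPKM for Coq10b in any library. Of the atypical kinase genes Coq8a and Coq8b, whose products assist the biosynthetic complex, Coq8b was the higher, at 3.68 and 3.71 RPKM in KO and 3.79 and 3.68 RPKM in WT. Coq8a was at 2.47 and 2.26 RPKM in KO and 2.23 and 2.62 RPKM in WT. Pptc7, a mitochondrial phosphatase gene, was at 133 and 132 CPM in KO and 124 and 135 CPM in WT (log2 change 0.031, adjusted p = 0.897).

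Of 8 genes of the mevalonate pathway, which supplies the tail, 0 passed the adjusted threshold, and the median log2 change was -0.0023, at -0.066 without WT replicate 2 and 0.024 without KO replicate 2. The 2 genes with the smallest p were Mvk (mevalonate kinase), at 9.51 and 8.35 CPM in KO and 11.0 and 11.2 CPM in WT (log2 change -0.31, SE 0.12, adjusted p = 0.547), and Fdps (farnesyl diphosphate synthase), at 27.1 and 27.1 CPM in KO and 32.7 and 28.5 CPM in WT (-0.17, SE 0.08, adjusted p = 0.618). Both KO libraries lay below both WT libraries for these 2 of the 8 genes, beside 20.1% of all genes tested. They lay above for 1 of the 8, beside 20.4%. Of the 9 genes that draw isoprenoids into other products, 0 passed, with a median of -0.0082, at -0.039 without KO replicate 1 and 0.037 without WT replicate 1. Fdft1 (squalene synthase) was the lowest, at 14.4 and 15.2 CPM in KO and 18.6 and 17.5 CPM in WT (-0.28, SE 0.09, adjusted p = 0.526), and Rabggtb, a prenyltransferase subunit gene, stood at 0.090 (SE 0.06, adjusted p = 0.696).

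For the methyl groups used by COQ3 and COQ5, 0 of 4 supply genes passed. Mat2a, which encodes the enzyme that makes S-adenosylmethionine, was at 308 and 302 CPM in KO and 283 and 293 CPM in WT. For Mat2a both KO libraries were thus higher, as for 20.4% of all genes tested (log2 change 0.084, SE 0.05, adjusted p = 0.657). Its regulatory partner Mat2b was at 107.7 and 103.1 CPM in KO and 97.3 and 105.8 CPM in WT, which overlapped (0.054, SE 0.06, adjusted p = 0.814).

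Enzymes that reduce coenzyme Q, listed here without complex I, had 0 of 10 tested genes past the threshold. For 5 of 10, both KO libraries were below both WT libraries, beside 20.1% of all genes tested. Sdhc and Sdhb, subunits of complex II, had the smallest p, with log2 changes of -0.14 (SE 0.06, adjusted p = 0.579) and -0.12 (SE 0.06, adjusted p = 0.610). Dhodh, which couples pyrimidine synthesis to coenzyme Q, was at 16.7 and 17.7 CPM in KO and 16.5 and 18.3 CPM in WT (-0.014, SE 0.10, adjusted p = 0.978). Aifm2, for an extra-mitochondrial coenzyme Q reductase, had 1 to 5 counts per library and was not tested. The complex III subunits that use reduced coenzyme Q, leaving out Uqcrfs1, also had 0 of 9 past the threshold, but all 9 log2 changes were negative, with a median of -0.11, where 49.9% of all genes tested were positive. Both KO libraries lay below both WT libraries for 6 of the 9, beside the same 20.1% of all genes tested. The lowest were mt-Cytb at -0.33 (SE 0.06, adjusted p = 0.284) and Uqcrq at -0.28 (SE 0.06, adjusted p = 0.392). Leaving out WT replicate 2 moved the complex III median to -0.17, and leaving out WT replicate 1 to -0.056. Whether the biosynthesis genes, with 3 of 10 negative, differ from the complex III subunits as a group was not tested.

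**Figure D5:**
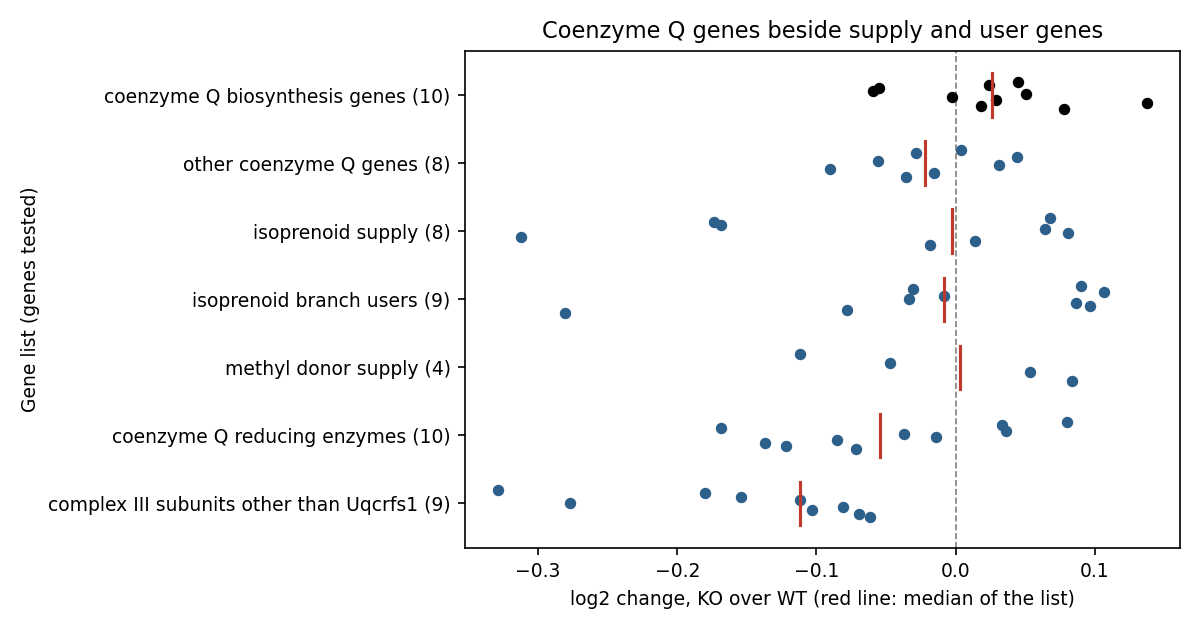
Log2 change of KO over WT for the tested genes of each list, 1 point per gene, with a red line at the median of the list. Coenzyme Q biosynthesis genes (black, top row) spread from -0.059 to 0.14, and the complex III subunits (bottom row) from -0.33 to -0.061.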

How the data were processed

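TruSeq libraries were sequenced per the labels' protocols. The submitters' processing notes name Trimmomatic 0.33 for trimming, STAR 2.5.2 for alignment, the mm10 build, HTSeq for counting and edgeR. The mode, strand option and annotation behind the HTSeq run are not stated. The authors deposited raw counts per Ensembl gene, and the per-library and series tables hold the same values (0 differing cells). HTSeq lines that name no gene, 38.3% to 40.0% of each file's total, were left out. The deposited comparison gives CPM, log2 fold changes, a likelihood ratio score, p-values and adjusted p-values by the authors, per the file headers.

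Counts were tested with edgeR 4.0.16 (R 4.3.3): filterByExpr (minimum count 10, total 15), TMM factors and a robust quasi-likelihood F test of KO over WT with no covariate, adjusted by Benjamini-Hochberg over 13281 genes. Standard errors are the log2 change over the square root of F, and 95% intervals use the test's degrees of freedom and are not adjusted for several genes. Alternatives were other scaling and filters, DESeq2 1.42.0, a likelihood ratio test, a replicate block and each library left out. Over genes with at least 40 summed counts, neither replicate pair agreed within counting noise (chi-square over its degrees of freedom 4.82 in KO, 9.00 in WT), so neither was counted as 1 library deposited more than once; this says nothing further about the samples.

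The members and lists were chosen with earlier results of these data known. Some genes first listed are not reported here; they were removed from the lists, so they enter no sum, count or median. All 10 members, Uqcrfs1 and, of each other pathway list, the 2 genes with the smallest p are named. Further genes of the pathway lists were named for their role and those of the cell type marker lists for their level or p, after their values were seen. Symbols came from GENCODE M21 for 42462 identifiers and the authors' table for 46, and Fdx2 was matched by its older symbol.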

Additional observations from a re-analysis of the deposited data

How the results depend on the processing

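Under none of the alternatives run (other scaling, other filters, DESeq2, the likelihood ratio test, the replicate number as a block and each library left out) did any of the 10 coenzyme Q biosynthesis genes pass an adjusted p of 0.05, and the smallest adjusted p was 0.523. The 8 settings that kept all 4 libraries moved no log2 change of these genes by more than 0.0048. Leaving out 1 library turned the sign of 7: the ranges were -0.0080 to 0.16 for Pdss1, -0.026 to 0.056 for Pdss2, -0.078 to 0.14 for Coq3, -0.22 to 0.21 for Coq4, -0.19 to 0.086 for Coq7, -0.058 to 0.098 for Coq9 and -0.085 to 0.17 for Coq10b. The median of the 10 stayed between 0.012 and 0.035. How many of all genes tested turn sign in such fits was not computed. The count of all genes called did depend on the setting: 2 were higher with upper quartile factors. No filter on low counts gave 114 higher and 77 lower, DESeq2 10 and 12, the likelihood ratio test 67 and 35, and left-out libraries 15 to 184 and 11 to 181; the cause was not tested. Fits without 1 library take the spread of the remaining lone library from the other genotype. The replicate block gave 18 higher and 9 lower genes and 0 of the 10; replicate numbers are not stated to pair mice, and same-numbered deviations correlated at 0.075 across 13281 genes. With 2 mice a group, each edgeR p-value sets a change against a spread estimated from these 4 libraries and partly borrowed across genes. The per-kilobase alternatives were chosen after seeing the data.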
